A study of Mus musculus with 2 samples.

Results

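The genes described here were 40 genes of protein folding in the endoplasmic reticulum (ER), chosen by name: 17 chaperones and their cofactors, 8 enzymes of disulfide exchange, 10 factors of ER-associated degradation and 5 sensors and transcription factors of the unfolded protein response. The 40 genes, like the other lists below, were chosen with earlier results of these data known. All 40 were measured, among 16346 genes measured in all. They were compared in the livers of fasted and fed mice, to ask how the machinery that folds and clears secretory proteins differed with the intake of food. The fasting group comprised 3 male mice fasted overnight for 14 to 16 h, whose liver RNA was pooled. The feeding group comprised a pool of 3 male mice, which 1 label describes as given nutrients following the fast and another as having free access to food. The labels name no strain, genotype or age, while the methods give adult C57BL/6 J mice, or transgenic mice on a C57BL/6 background, for the study. No drug or transgene is named for either group, and how long the mice had eaten is not given.

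Each pool was labelled with Cy3 and hybridised to 1 Agilent whole mouse genome array, so each group had 1 array and its difference from the other has neither a test nor a standard error. A value is a signal, the intensity of a probe after subtraction of background, quantile normalized between both arrays. A change is the log2 of the signal upon feeding minus that upon fasting, and 2-fold, a change of 1, is the threshold used throughout. Signals of different probes are not comparable levels, since probes differ in how they bind, so genes are set against each other by their changes. Signals of different probes are added up only for markers of cell types. The share of transcript spots that were well above background was lower upon fasting (63.1%) than upon feeding (72.3%), and the median local background was higher (30.2 against 22.5). No spot was saturated, and both files give the same scan time. The error of a spot was measured from probes spotted many times per array. With genes divided by brightness into 3 groups of equal size, the SD of the log2 difference of such spots was 0.44 in the dimmest group, 0.14 in the middle and 0.09 in the brightest. The spread between mice is no part of this SD, and neither is the difference between probes of the same gene. The probes of Derl1, for example, gave changes of -0.04 and 0.61. Of the 40 genes, 30 were in the brightest group, 7 in the middle group and 3 in the dimmest. Hepatocyte markers were bright on both arrays, with albumin (Alb) at 151264 upon fasting and 144433 upon feeding.

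The ER lumen receives secretory and membrane proteins as unfolded chains, and hepatocytes, which make most of the plasma proteins, carry a heavy load of them. Chaperones of the Hsp70 and Hsp90 families and the lectins calnexin and calreticulin hold the chains, protein disulfide isomerases form and shuffle their disulfide bonds, and peptidyl-prolyl isomerases turn their proline bonds. Chains that fail to fold are trimmed of mannose, brought to a ubiquitin ligase in the membrane, pulled into the cytosol and degraded, a route called ER-associated degradation. When the load exceeds the capacity, the sensors encoded by Ern1, Eif2ak3 and Atf6 start the unfolded protein response. The transcription factors made from spliced Xbp1 messenger RNA and from cleaved Atf6 protein then act on genes of folding and degradation, many of which carry a short promoter motif, the ER stress element.

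Upon feeding, 12 of the 40 genes (30%) were at least 2-fold higher and 0 were 2-fold lower, against 3.29% higher and 4.62% lower of all genes measured. The change was above 0 for 29 of the 40 (72.5%), against 47.7% of all genes, and its median was 0.65, against 0 over all genes. A gene well above background on only 1 array counted as 0 where its signal there was not above its bound on the other. Over all genes, 7802 changes were above 0 and 7383 below, and the median without this rule was 0.03. In the brightest group, 9 of 30 (30%) were 2-fold higher, while 2.09% of all genes of that group were. The 12 were Derl3, Sdf2l1, Creld2, Hyou1, Pdia4, Manf, Fkbp11, Syvn1, Xbp1, Dnajb11, Dnajb9 and Hsp90b1, with changes from 1.001 to 4.03. Derl3 had the rank 5 and Sdf2l1 the rank 6 among the increases of all genes. For 13 of the 40 genes the change was within 2 SDs of replicate spots of like brightness. In pooled tissue RNA, fewer cells of a type and less RNA per cell cannot be told apart.

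**Figure D1:**
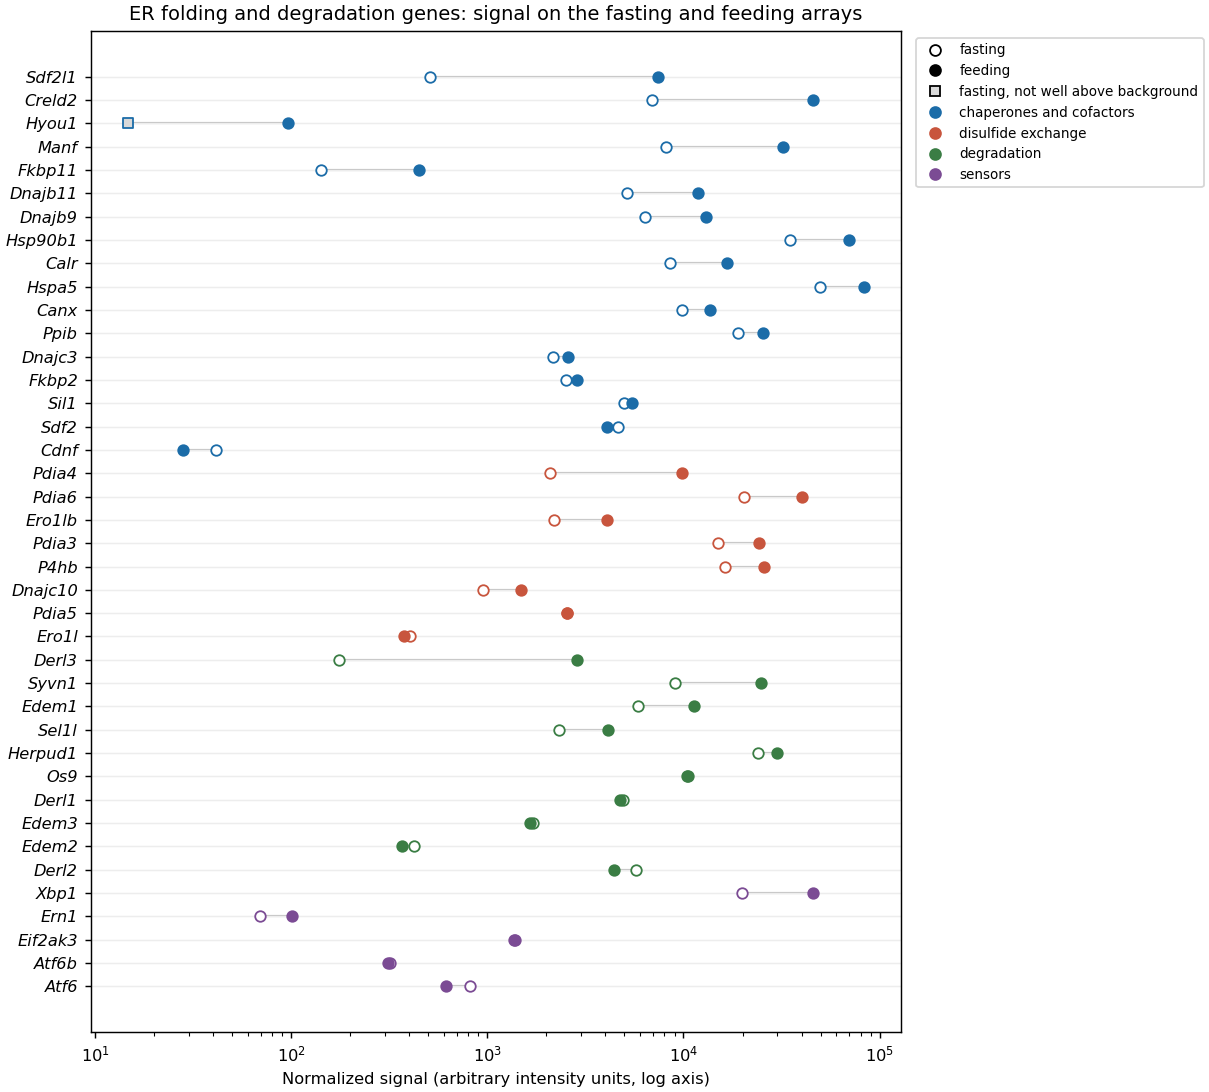
Normalized signal (arbitrary intensity units, log axis) of each of the 40 genes on the fasting array (open symbols) and the feeding array (filled symbols), coloured by class and ordered by change within a class; the grey square marks the 1 signal that was not well above background. The longest lines belong to Derl3, from 175 to 2850, and Sdf2l1, from 509 to 7379, while the symbols of Pdia5, Os9 and Eif2ak3 nearly coincide; positions of different genes on the axis are not comparable levels.

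Chaperones and their cofactors held 8 of the 12 genes past 2-fold. Of these 17 genes, 8 (47.1%) were 2-fold higher, against 3.29% of all genes. The change was above 0 for 15 (88.2%), against 47.7% of all genes, and the median change was 0.97. The central Hsp70 chaperone of the lumen, Hspa5 (BiP), gave a signal of 49937 upon fasting and 83381 upon feeding, which was 1.67-fold higher (change 0.74). Hsp90b1, the Hsp90 chaperone of the ER, gave 35068 and 70184, just past the threshold (2.001-fold, change 1.001). Both differences were larger than the spread of replicate spots, and both genes already gave bright signals upon fasting. The promoter of Hspa5 is shown because it carries the element in its common form, CCAAT followed after 9 bases by CCACG. It is the stretch of 250 bases before the transcription start in RefSeq (build GRCm38.p6, chr2:34771840-34772089, plus strand), written 5′ to 3′ along the gene, with the parts of the element in capitals.
Hspa5: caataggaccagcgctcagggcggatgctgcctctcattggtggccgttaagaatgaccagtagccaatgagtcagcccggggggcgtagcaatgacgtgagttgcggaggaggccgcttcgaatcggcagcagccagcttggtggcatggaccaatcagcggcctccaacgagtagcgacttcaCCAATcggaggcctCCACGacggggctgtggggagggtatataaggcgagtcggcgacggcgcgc

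Hyou1, which encodes a large Hsp70 relative that exchanges the nucleotide of BiP, gave 14.6 upon fasting, where it was not well above background, and 96.1 upon feeding. It was measured as 6.57-fold higher (change 2.71) with the 1 dim probe of this gene, which is not a minimum. With another bound for dim signals, the change of Hyou1 was 2.60. With another background correction, normexp, its change was 0.55, so whether Hyou1 is past 2-fold depends on how the background is treated. Sil1, the other nucleotide exchange factor, gave 4984 and 5486, a change of 0.14 that was within 2 SDs of replicate spots. The J-domain proteins, which load chains onto BiP and start its ATP cycle, were not alike in their changes. Dnajb11 gave 5161 and 11802 (2.29-fold) and Dnajb9 gave 6374 and 13018 (2.04-fold), while Dnajc3 gave 2154 and 2588, a change of 0.26. The second probe of Dnajb9 gave 584 and 905, a change of 0.63 in the same direction. The second probe of Dnajb11, which is annotated to another transcript, was dim and opposite, with 109 and 48.0, a change of -1.18.

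Sdf2l1 encodes a small lumenal protein that binds the Dnajb11 product and keeps chains from aggregating. It gave 509 upon fasting and 7379 upon feeding, 14.5-fold higher, a change of 3.86. Creld2, which encodes an ER protein with isomerase activity, gave 6872 and 45973, 6.69-fold higher, a change of 2.74. Creld2 was spotted 10 times per array, and before normalization the spots lay between 6721 and 7127 upon fasting and between 43519 and 47367 upon feeding, so that the spots of the arrays did not overlap. The SD over these spots was 0.03 on the log2 scale upon fasting and 0.04 upon feeding. Manf, a secreted ER protein that binds BiP, gave 8151 and 32125, 3.94-fold higher, a change of 1.98. Its relative Cdnf was dim, with 41.2 and 28.1, a change of -0.55 that was within 2 SDs of replicate spots.

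The promoters of Creld2 (chr15:88819396-88819645, plus strand) and Sdf2l1 (chr16:17132384-17132633, minus strand) are shown side by side because these genes had the largest changes of the class and their promoters differed in the element. Capitals mark the parts of the element and every CCACG, which reads CGTGG where it lies on the other strand. The Creld2 promoter held 1 element, on the strand opposite to the gene, while the Sdf2l1 promoter held 3 copies of CGTGG and no element.
Creld2: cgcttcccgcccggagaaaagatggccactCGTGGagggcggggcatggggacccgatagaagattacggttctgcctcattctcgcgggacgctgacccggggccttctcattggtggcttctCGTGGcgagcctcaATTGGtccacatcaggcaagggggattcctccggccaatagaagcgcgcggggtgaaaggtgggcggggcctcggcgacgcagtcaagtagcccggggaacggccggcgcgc
Sdf2l1: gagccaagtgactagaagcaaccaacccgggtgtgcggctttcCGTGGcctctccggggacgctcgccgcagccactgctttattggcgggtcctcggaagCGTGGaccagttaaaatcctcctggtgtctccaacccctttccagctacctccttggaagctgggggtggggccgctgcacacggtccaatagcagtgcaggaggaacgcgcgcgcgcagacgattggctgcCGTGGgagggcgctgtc

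The lectin chaperones, which bind monoglucosylated glycoproteins, differed by 0.50 in their changes. Calreticulin (Calr), in the lumen, gave 8500 and 16598, just under the threshold (1.95-fold, change 0.97), and calnexin (Canx), in the membrane, gave 9859 and 13608 (1.38-fold, change 0.46). Among the peptidyl-prolyl isomerases, Fkbp11 gave 142 and 449, 3.16-fold higher (change 1.66). Cyclophilin B (Ppib) gave 18877 and 25333 (change 0.42) and Fkbp2 gave 2525 and 2864 (change 0.18). Sdf2, the close relative of Sdf2l1, gave 4624 and 4090, a change of -0.18. Fkbp2 and Sdf2 were within 2 SDs of replicate spots, while Calr, Canx, Fkbp11 and Ppib were not.

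Of the 8 enzymes of disulfide exchange, 1 (12.5%) was 2-fold higher, against 3.29% of all genes. A change above 0 was found for 6 (75%), against 47.7% of all genes, and the median change was 0.68. The exception past the threshold was Pdia4, a disulfide isomerase with an additional thioredoxin-like domain, which gave 2076 upon fasting and 9823 upon feeding, 4.73-fold higher (change 2.24). Pdia6 gave 20351 and 40416, just under 2-fold (1.99-fold, change 0.99), and its second probe gave 1810 and 3000, a change of 0.73. The classical isomerase P4hb gave 16338 and 25880 (change 0.66), and Pdia3, which works with calnexin and calreticulin on glycoproteins, gave 14937 and 24234 (change 0.70). Those 2 changes differed by 0.03, which was below the spread of replicate spots. Pdia5 gave 2545 and 2542, a change of -0.00. The oxidases that recharge the isomerases also differed. Ero1lb (Ero1b) gave 2196 and 4081 (1.86-fold, change 0.89), and Ero1l (Ero1a) gave 401 and 375 (change -0.10). Dnajc10, a reductase with a J domain, gave 951 and 1477 (change 0.64) with its brighter probe and 46.5 and 41.7 (change -0.16) with its dim one.

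**Figure D2:**
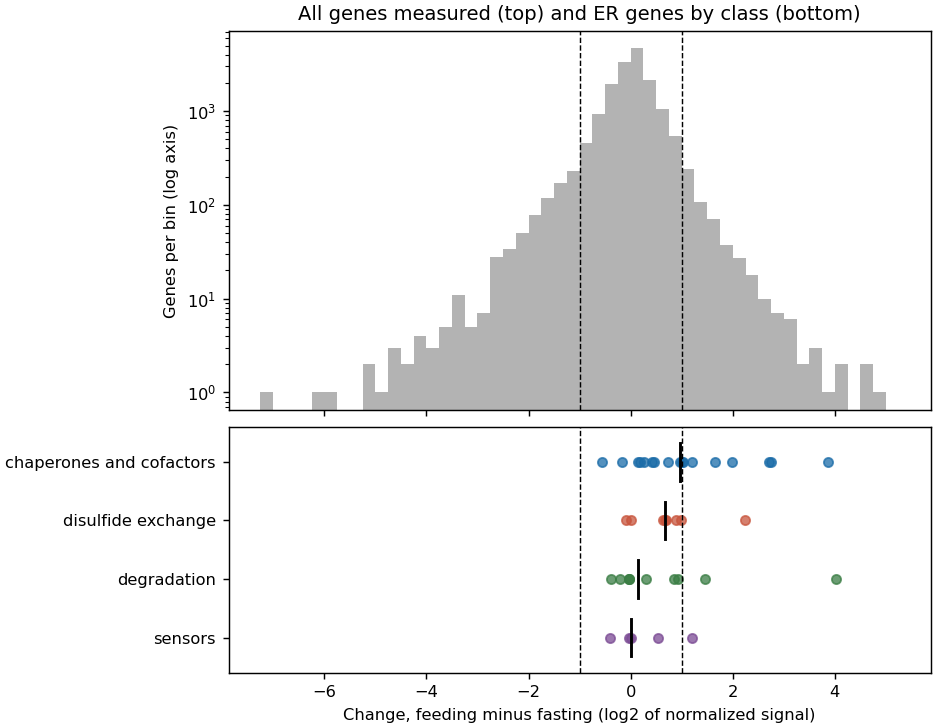
Number of genes (log axis) by change, feeding minus fasting on the log2 scale, for all 16346 genes measured (top), and the change of each of the 40 ER genes by class (bottom, points; vertical bars are class medians); dashed lines mark 2-fold. The class medians were 0.97 for chaperones and cofactors, 0.68 for disulfide exchange, 0.14 for degradation and 0.02 for sensors, against 0 for all genes, and no point lies left of the lower dashed line.

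Of the 10 degradation factors, 2 (20%) were 2-fold higher, against 3.29% of all genes. The change was above 0 for 5 (50%), near the 47.7% of all genes, and below 0 for 5, and the median change was 0.14. The spread within the class was wide, from -0.38 to 4.03. Derlins are membrane proteins of the channel through which chains leave the ER. Derl3 gave 175 upon fasting and 2850 upon feeding, 16.3-fold higher, the largest change of the 40 genes (4.03). Derl1 gave 4889 and 4758 (change -0.04) and Derl2 gave 5749 and 4417 (change -0.38), so the changes of the other derlins lay 4.07 and 4.41 below that of Derl3. The direction of these other derlins is not settled by their probes. The second probe of Derl1 gave 2961 and 4528, a change of 0.61, and the further probes of Derl2 gave changes of -0.33 (1844 and 1463) and 0.67 (1573 and 2511). None of these probes was past 2-fold. The promoter of Derl3 (chr10:75893148-75893397, plus strand) is shown because this gene had the largest change, with the parts of its element, on the opposite strand, and every CCACG or CGTGG in capitals.
Derl3: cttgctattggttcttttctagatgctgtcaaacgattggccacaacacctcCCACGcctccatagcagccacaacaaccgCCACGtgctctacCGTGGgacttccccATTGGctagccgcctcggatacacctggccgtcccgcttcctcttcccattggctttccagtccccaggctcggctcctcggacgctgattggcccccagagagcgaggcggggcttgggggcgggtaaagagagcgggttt

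Syvn1 encodes the ubiquitin ligase Hrd1 and Sel1l its partner, which together form the core complex of the route. Syvn1 gave 9065 and 24764, 2.73-fold higher (change 1.45), and Sel1l gave 2308 and 4146 (change 0.85). Herpud1, a membrane scaffold of the same complex, gave 24098 and 29833, a smaller change of 0.31. Among the factors that trim mannose from misfolded glycoproteins, Edem1 gave 5892 and 11277, just under the threshold (1.91-fold, change 0.94). Edem2 gave 424 and 369 (change -0.20) and Edem3 gave 1707 and 1660 (change -0.04). The lectin Os9, which hands trimmed glycoproteins to the ligase, gave 10545 and 10370, a change of -0.02. Os9 was also spotted 10 times per array, and its spots overlapped, lying between 10248 and 10881 upon fasting and between 9281 and 11094 upon feeding before normalization. Edem2, Edem3 and Os9 were within 2 SDs of replicate spots, as was the brightest probe of Derl1.

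Of the 5 sensors and transcription factors, 1 (20%) was 2-fold higher, against 3.29% of all genes. A change above 0 was found for 3 (60%), against 47.7% of all genes. Xbp1 gave 19946 and 45645, 2.29-fold higher (change 1.19). The array gives 1 signal for Xbp1 and does not tell the spliced from the unspliced messenger RNA. The sensor kinases differed little. Ern1, which encodes the kinase and nuclease that splices Xbp1, was dim, with 69.6 and 101 (change 0.53), and Eif2ak3, which encodes the kinase PERK, gave 1371 and 1385 (change 0.02). Both changes were within 2 SDs of replicate spots. Atf6 gave 814 and 617 (change -0.40), and its relative Atf6b gave 320 and 311 (change -0.04). The median change of the class was 0.02. These are levels of messenger RNA, and the splicing, phosphorylation and cleavage by which the sensors act were not measured.

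Closely related genes often differed in their changes. Sdf2l1 exceeded Sdf2 by 4.04 on the log2 scale (SD of replicate spots for this difference 0.13), Derl3 exceeded Derl1 by 4.07 (SD 0.17) and Manf exceeded Cdnf by 2.53 (SD 0.45). Among the disulfide isomerases, Pdia4 exceeded Pdia5 by 2.24, P4hb by 1.58, Pdia3 by 1.54 and Pdia6 by 1.25 (SD 0.13 each). Fkbp11 exceeded Fkbp2 by 1.48 (SD 0.17), Edem1 exceeded Edem2 by 1.14 (SD 0.17) and Edem3 by 0.98 (SD 0.13), and Ero1lb exceeded Ero1l by 0.99 (SD 0.17). The differences were smaller between Atf6b and Atf6, at 0.36 (SD 0.19), and between Edem3 and Edem2, at 0.16 (SD 0.17). In each of the groups of Sdf2, derlin, Manf and Cdnf, Fkbp, disulfide isomerase, oxidase and Edem genes, at least 1 gene thus had a change of at least 0.89, and at least 1 relative had a change of no more than 0.18. These limits were read from the same values. They did not hold for Calr and Canx (0.97 and 0.46), Hyou1 and Hspa5 (2.71 and 0.74) or Atf6b and Atf6 (-0.04 and -0.40). The SDs cover repeated spots of a probe, and neither the spread between mice nor the difference between probes of the same gene. The probes of Derl1 gave changes of -0.04 and 0.61, and those of Derl2 ranged from -0.38 to 0.67.

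**Figure D3:**
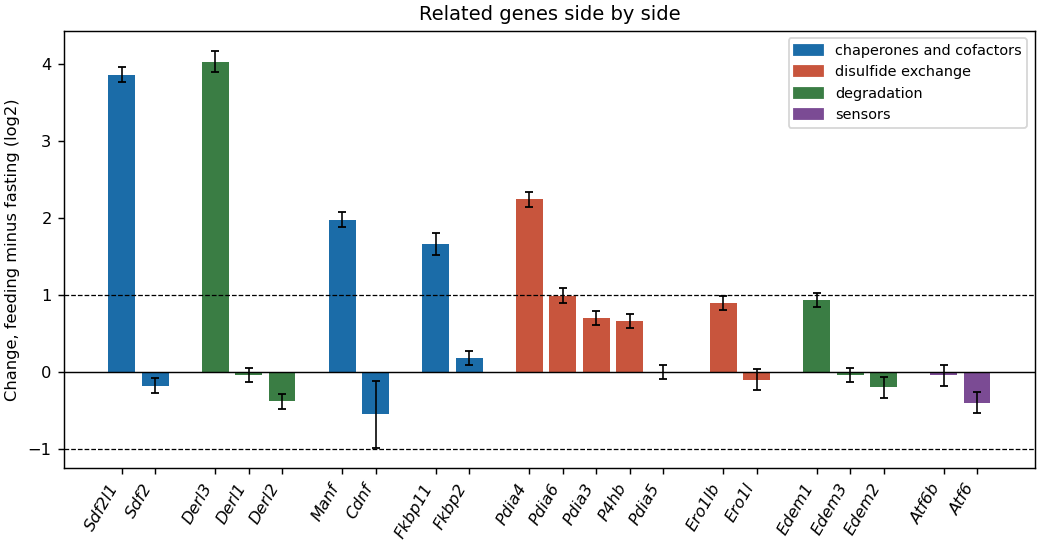
Change (feeding minus fasting, log2) of related genes drawn side by side as bars from 0; error bars are 1 SD of replicate spots of like brightness, not replicates of the groups, and dashed lines mark 2-fold. Sdf2l1 at 3.86 stands beside Sdf2 at -0.18, and Derl3 at 4.03 beside Derl1 at -0.04 and Derl2 at -0.38.

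RefSeq promoters, the 250 bases before and 50 bases after the transcription start (GRCm38.p6), were given for 35 of the 40 genes, all but Hyou1, Sil1, Manf, Derl1 and Atf6. They were searched on both strands for 4 motifs. The ER stress element (CCAAT, any 9 bases, CCACG) was found in 10 of the 35 promoters (28.6%), against 37 of 27025 genes (0.137%). The ER stress element II (ATTGG, any 1 base, CCACG) was found in 2 of the 35 (5.71%), against 12 of 27025 genes (0.0444%). Both contain CCACG, which on its own was found in 28 of the 35 (80%) and in 35.5% of all genes. The element TGACGTGG was found in 0 of the 35 and in 0.714% of all genes. A match is a description of letters and no evidence that a factor binds there, and genes of this kind are those from which the element was first defined.

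The elements of these 12 genes are shown because they let the spacer bases be compared. Each is written 5′ to 3′ in its own orientation, with the fixed parts in capitals. The elements of Calr, Creld2, Ero1lb and Derl3, and the second of Hsp90b1, lie on the strand opposite to the gene. In GRCm38.p6 they lie at chr2:34772025-34772043 (Hspa5), chr10:86705638-86705656 and chr10:86705533-86705551 (Hsp90b1), chr8:84847075-84847093 (Calr), chr11:50325800-50325818 (Canx), chr14:118937827-118937845 (Dnajc3), chr15:88819520-88819538 (Creld2), chr12:17266491-17266509 (Pdia6), chr13:12565682-12565700 (Ero1lb), chr10:75893242-75893260 (Derl3), chr19:6046532-6046550 (Syvn1), chr16:22857852-22857862 (Dnajb11) and chr8:94386377-94386387 (Herpud1). Hsp90b1, Calr and Canx are on the minus strand and the others on the plus strand. Dnajb11 and Herpud1 carry the element II, and the others the longer element.
Hspa5: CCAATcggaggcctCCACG
Hsp90b1: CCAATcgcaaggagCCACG
Hsp90b1: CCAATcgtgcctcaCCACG
Calr: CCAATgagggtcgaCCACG
Canx: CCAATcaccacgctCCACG
Dnajc3: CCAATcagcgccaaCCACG
Creld2: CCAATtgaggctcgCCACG
Pdia6: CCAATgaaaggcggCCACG
Ero1lb: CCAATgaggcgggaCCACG
Derl3: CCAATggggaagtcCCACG
Syvn1: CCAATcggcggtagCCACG
Dnajb11: ATTGGcCCACG
Herpud1: ATTGGgCCACG

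The 12 genes with either element all had a change above 0, from 0.26 for Dnajc3 to 4.03 for Derl3, with a median of 0.98, and 5 of them were 2-fold higher. The 23 genes whose promoter held neither had changes from -0.55 to 3.86 with a median of 0.42, and 14 were above 0 and 5 were 2-fold higher. The ranges of the genes with and without an element overlapped, and the difference between them was not tested. Sdf2l1, Pdia4, Fkbp11, Xbp1 and Dnajb9 were 2-fold higher without a match in this window, and Dnajc3 and Herpud1 had a match with changes of 0.26 and 0.31. Of the measured genes outside the 40, 18 had either element in the same window, and their median change was -0.01. They ranged from -0.83 (Rcl1) to 0.83 (Alg12), 8 of the 18 were above 0, and 0 were past 2-fold in either direction. The corresponding values of the 12956 other genes without an element were a median of 0 and 3.14% 2-fold higher.

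**Figure D4:**
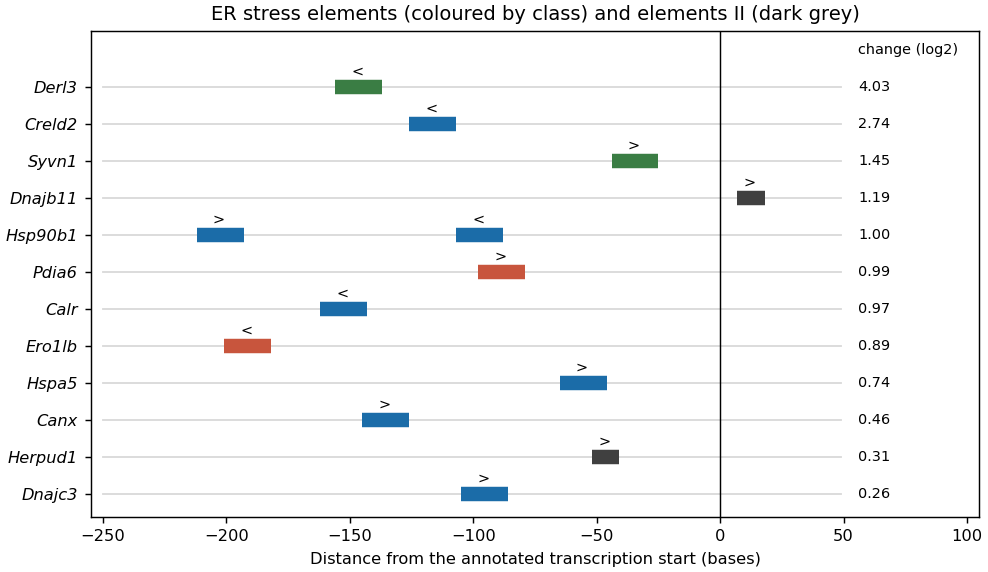
Position of each ER stress element (coloured by class of the gene: blue for chaperones and cofactors, red for disulfide exchange, green for degradation) and element II (dark grey) in bases from the annotated transcription start, with > for the strand of the gene and < for the other strand; the change of each gene (log2) stands at the right, and genes are ordered by it. The elements lie at varied distances from the start, and that of Dnajb11 lies after it.

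The pathway holds many genes beyond these 40, and 76 others from a fixed list were all measured. Like the 40, this list was chosen with earlier results of these data known. Of the 76, 4 were 2-fold higher and 5 were 2-fold lower, and their median change was 0.17. Of the 29 other folding genes, 1 (3.45%) was 2-fold higher and 0 lower, with a median of 0.18. This was Mogs, the glucosidase that removes the outermost glucose of the N-glycan, with 4760 and 9687 (2.04-fold). Of the 29 other degradation genes, 0 were higher and 1 (3.45%) was lower, with a median of 0.19. This was March6 (now Marchf6), a second ubiquitin ligase of the ER membrane, with 2320 and 1077 (change -1.11).

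Of the 18 other genes of stress signalling, 3 (16.7%) were 2-fold higher and 4 (22.2%) lower, against 3.29% and 4.62% of all genes. Their median change was -0.05. Bhlha15, a transcription factor of secretory cells, was not well above background upon fasting (13.2) and gave 354 upon feeding. This was 24.5-fold above the bound, which is not a minimum. Its change was 4.49 with another bound for dim signals and 1.77 under normexp. Ddit3 (CHOP), a transcription factor induced by several stresses, gave 312 and 1475 (4.72-fold higher), and Wfs1, an ER membrane protein, gave 369 and 779 (2.11-fold higher). The genes that were lower upon feeding were Ddit4, an inhibitor of mTORC1 signalling, with 27114 and 2046 (change -3.73), and Chac1, which degrades glutathione, with 2310 and 482 (change -2.26). Bbc3, which encodes a cell death protein, gave 1552 and 656 (change -1.24), and Trib3, a pseudokinase, gave 3269 and 1633, just past the threshold (change -1.001). Ddit3, Chac1 and Trib3 are known targets of the PERK and ATF4 branch, and they thus differed in direction. The change of Trib3 fell short of 2-fold under 75th percentile scaling (-0.93), median scaling (-0.81) and normexp (-0.87), that of March6 under median scaling (-0.94) and that of Wfs1 under normexp (0.91).

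Some of these genes are abundant in professional secretory cells, so markers of such cells and of liver cells were read on both arrays. The summed signal of 10 of 10 hepatocyte markers was 1035920 upon fasting and 858699 upon feeding. Much of this difference came from Pck1 (96237 and 12469) and Tat (104878 and 53470). The changes of Alb, Ttr, Apoa1, Apoa2, Serpina1a and Cyp2e1 lay between -0.07 and 0.07, and those of Cps1 and Hnf4a were -0.33 and -0.43. Quantile normalization gives both arrays the same set of signals, so probes that are brightest on both can differ little. Apoa2 gave 168729 on both arrays, and Alb and Serpina1a exchanged the signals 151264 and 144433. For pancreatic acinar cells, 10 of 13 markers were measured and their summed signal was 4667 upon fasting and 4239 upon feeding, most of it from Amy2a5 (3600 and 3348). Neither array gave a signal well above background for Cela3b, Cpb1 and Pnlip. Clps gave 522 and 423, and Ctrb1 gave 352 and 266. Prss1 (24.9 and 30.3), Cela1 (37.9 and 44.9) and Cel (50.4 and 54.3) were dim. Of the 10 acinar markers measured, 5 had a change above 0 and 4 below 0. The acinar markers past 2-fold went both ways. Prss2 was not well above background upon fasting (5.48) and gave 37.4 upon feeding, 2.59-fold above the bound. Cela2a gave 48.7 and 7.51, a change of -2.70. For plasma and B cells, 7 of 8 markers were measured and their summed signal was 509 and 679. Tnfrsf17 did not reach a signal well above background, Jchain gave 156 and 215, Mzb1 gave 74.2 and 66.9, and Ms4a1 gave 17.6 and 40.6. Summed signals of macrophages (77256 and 58761), T and NK cells (5281 and 4062), endothelial cells (28029 and 21096) and stellate cells (54594 and 39270) were lower upon feeding. Those of neutrophils (1393 and 2282) and cholangiocytes (2757 and 3377) were higher, the latter through Sox9 (377 and 1625). Red blood cell markers gave 23759 and 22733. A summed signal rests mostly on the brightest probes of a list. Single markers past 2-fold, besides those of acinar cells, were Ms4a1 and Sox9, which were higher upon feeding, and Pck1 (change -2.95) and Pecam1 (change -1.04), which were lower. The part of cell composition in the changes of the ER genes was not tested.

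The processing of the arrays moved some of these values. Of the 12 genes past 2-fold, 9 were so under all 8 other settings of scaling, background, probes and filters, and Hyou1, Dnajb9 and Dnajb11 were not. Each of the 9 has 1 probe, well above background on both arrays. Only 75th percentile scaling, median scaling and normexp could therefore change their values. The sign of the change was above 0 in every setting for 29 genes and below 0 in every setting for 5, which were Cdnf, Ero1l, Derl2, Edem2 and Atf6. For Derl2 the mean over its probes was only -0.01, and its probes differed in sign. The sign of the remaining 6, Sdf2, Pdia5, Derl1, Edem3, Os9 and Atf6b, changed between settings.

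**Figure D5:**
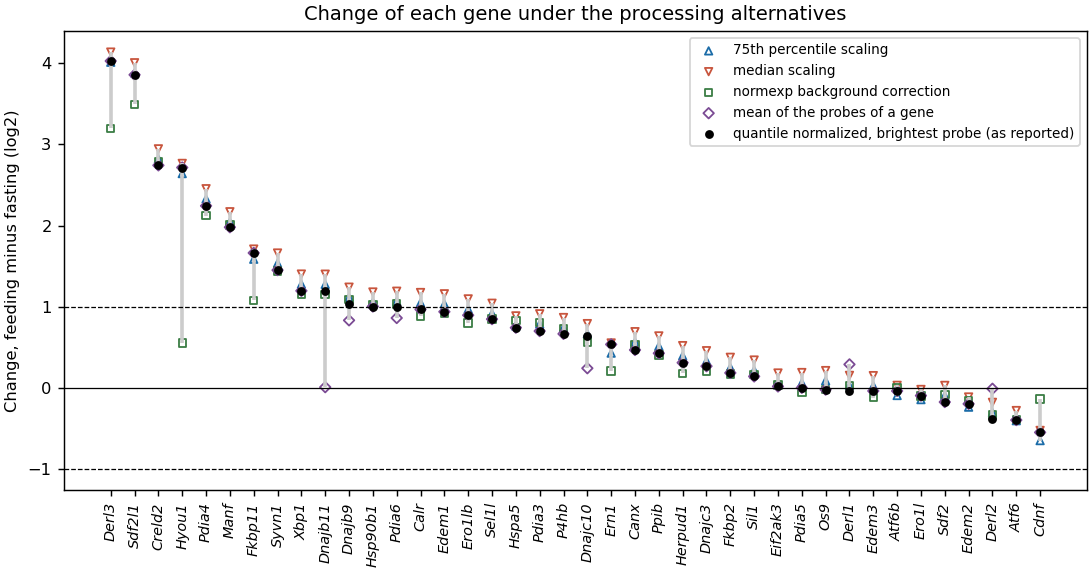
Change of each of the 40 genes (feeding minus fasting, log2), ordered by the value reported (black points), with its value under other scalings (triangles), under normexp (squares) and as a mean over the probes of the gene (diamonds); dashed lines mark 2-fold. The widest spans belong to Hyou1, from 0.55 under normexp, and to Dnajb11, whose mean over 2 probes was 0.01.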

How the data were processed

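Liver RNA of fasted and of fed mice, 1 pool of 3 mice per group, was measured on 1 array each. Per the labels and file headers, the authors labelled the RNA with Cy3 and extracted spots with Agilent Feature Extraction 11.0.1.1. The deposited files give the intensity of each spot after background subtraction, not normalized between arrays. The deposited series value table equals the local background for 44397 of 44397 spots (relative tolerance 1e-06) and was not used.

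Control and outlier spots were left out, log2 signals were averaged per probe and quantile normalized. Of 39402 probes, 27218 (69.1%) were named through RefSeq transcripts (GRCm38.p6). A gene was represented by its brightest probe, which had to be well above background (in at least 0.5 of its spots) on 1 array or both. For a probe not so on 1 array, the change is a bound against the higher of its own signal and the lowest signal well above background there (14.4 upon fasting, 6.55 upon feeding). The change was set to 0 where the signal on the other array was not above that value. Replicate spots were those of 318 probes with at least 8 spots. Every one of the 40 genes is named, and other pathway genes past 2-fold. Members and lists were chosen with earlier results of these data known. The scripts were tested on simulated data. Alternatives were 75th percentile and median scaling, normexp with an offset of 50 (limma 3.58.1, R 4.3.3), the mean of the probes of a gene, other filters and bounds, and thresholds of 1.5-fold and 3-fold. Promoters came from RefSeq (GRCm38.p6). The number of arrays limits the precision. Python 3.11.15 was used.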

Additional observations from a re-analysis of the deposited data

How the results depend on the processing

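Of the 40 genes, 12 were 2-fold higher as reported, and between 10 and 17 under the 8 other settings, while 0 were 2-fold lower in any. With thresholds of 1.5-fold and 3-fold, 21 and 7 were higher. The median change of 0.65 moved to 0.83 under median scaling, which shifted the median over all genes by 0.12, and to 0.50 with the mean of the probes of a gene. Of the 12, 9 were past 2-fold in every setting. The exceptions were Hyou1 (0.55 under normexp, and not measured where both arrays had to be well above background), Dnajb9 (0.83) and Dnajb11 (0.01), both with the mean of probes. Calr, Pdia6, Ero1lb, Sel1l and Edem1 passed 2-fold in at least 1 setting. Sdf2, Pdia5, Derl1, Edem3, Os9 and Atf6b changed sign between settings, with sizes of at most 0.29. Of 319 values of single genes under these settings, 47 moved by more than the spread of replicate spots.

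Over all genes, 537 were higher and 756 lower. These counts were 215 and 312 under normexp, 838 and 1185 without the filter on dim probes, 1714 and 1737 at 1.5-fold, and 158 and 311 at 3-fold. More genes were higher than lower without the bound (876 and 760) and under median scaling (717 and 649), in contrast to the values reported. For dim genes the background is the limit, and fewer spots were well above it upon fasting. The slide as a block was not run, because each group had 1 array. No paired analysis was possible because each group had 1 array.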
